A study of Homo sapiens with 20 samples.

Results

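The ATF4 amino acid response genes are the targets, cofactors and partners of the transcription factor ATF4. They were taken from both count tables by gene symbol, and all 47 were found once in each table, out of 57773 listed genes. By role they comprise 8 transcription factors and cofactors, 8 stress effectors, 6 enzymes of serine synthesis and one-carbon metabolism, 7 other amino acid enzymes, 8 amino acid transporters and 10 genes for tRNA ligases and tRNA export. In both tables, 46 of the 47 passed the filter on low counts, and ALDH1L2, a mitochondrial folate enzyme with at most 1.18 CPM (counts scaled to a common library total) in any condition, did not.

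RNA-seq was performed in LNCaP, an androgen receptor-positive prostate cancer cell line. In the siRNA experiment, cells received 20 nM of siEHMT1 or the non-target control siNTC for 2 days, with 2 samples each. In the induction experiment, LNCaP-tet-EHMT1 stable lines carried V5-tagged EHMT1 under a doxycycline-regulated promoter, as wild type (WT) or with arginine in place of 1 or both of a pair of adjacent lysines (K450R, K451R and K450RK451R, together the mutant lines). Each of the 4 lines was left without drug (Veh) or given 0.25 µg/mL doxycycline (Dox) for 2 days. The lines were made by lentiviral transduction and antibiotic selection from the same parent, and without drug their EHMT1 was at 71.7 to 88.9 CPM. No line without the transgene received Dox, so the drug and the induced protein cannot be told apart. EHMT1 is a methyltransferase of histone H3 lysine 9, and the lysine substitutions remove sites on EHMT1 itself that can be methylated.

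The 2 deposited columns of each stable-line condition agreed within counting noise, their chi-square over degrees of freedom being 0.995 to 1.02, and were summed to 1 sample, so the line is the replicate. The siRNA samples differed by more, at 61.6 for siNTC and 13.4 for siEHMT1, or 6.58 and 6.17 once AC010970.2 and CTD-2328D6.1 were left out. Total counts ran from 5593400 to 12438006 in the siRNA samples and from 8436791 to 12407739 per summed condition. EHMT1 itself checked the siRNA and Dox labels, while gene counts cannot show which allele a line carries. It was at 87.8 and 83.6 CPM in siNTC and at 29.2 and 30.7 CPM in siEHMT1, and Dox raised it by 7.46- to 10.4-fold in the 4 lines. Luminal prostate markers were abundant in every sample, with a summed level of 5983 CPM or more, while the 9 markers of other cell types that were found summed to at most 46.8 CPM, of which COL1A1 and VWF alone passed the filter.

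When amino acids run short or unfolded protein builds up, kinases phosphorylate the initiation factor eIF2. General translation then falls, but the ATF4 message is translated more, because short upstream reading frames in its leader delay the ribosome. ATF4 protein pairs with C/EBP factors on DNA elements that join a C/EBP and an ATF site, and drives genes that make, import and charge amino acids. Much of this control is exerted on protein, so the ATF4 mRNA levels described here are not a measure of ATF4 activity.

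The elements ATF4 binds were looked for first, because they are what the members are thought to share in sequence. In RefSeq promoter windows (GRCh38.p14) of 250 bases before and 50 after the start, 38 of the 47 members had a window. The letters TGATGNAA, on either strand, occurred in 10 of these 38 windows (26.3%) against 1003 of 27305 promoters in all (3.67%). Upstream of the start alone, 5 member windows (13.2%) held them against 3.19% of all promoters. Among the tRNA ligase and export genes 5 of 10 windows held the letters, and among the 3 serine and one-carbon windows none did. A match is a description of letters, not a binding site, and its absence says only that these letters are not in this window. The 5 upstream matches are shown, as the cases where the letters precede the start, and with them SLC3A2, a member that changed with Dox and holds them after it. SLC7A1, CARS, MARS and NARS also held the letters outside the upstream stretch and are not printed. Each reads 5′ to 3′ on the strand of the gene, with the matched letters in capitals, and a match on the other strand appears as its reverse complement.
ATF3, chr1:212738538-212738585, + strand: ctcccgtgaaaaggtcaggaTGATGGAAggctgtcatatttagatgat
CHAC1, chr15:41245440-41245487, + strand: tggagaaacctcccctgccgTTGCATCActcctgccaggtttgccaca
ASNS, chr7:97501761-97501808, - strand: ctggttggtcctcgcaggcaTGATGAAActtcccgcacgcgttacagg
AARS, chr16:70323569-70323616, - strand: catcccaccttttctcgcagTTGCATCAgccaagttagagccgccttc
IARS, chr9:95055980-95056012, - strand: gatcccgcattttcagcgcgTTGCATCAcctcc
SLC3A2, chr11:62649198-62649220, + strand: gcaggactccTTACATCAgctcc

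These positions are in GRCh37 (hg19), the build of the deposited counts, where each window matched at 1 place. The ASNS match lies 68 to 61 bases before the start, the CHAC1 match 209 to 202 bases before it and the SLC3A2 match 38 to 45 bases after it. The start is that of the RefSeq window, whereas the gene spans given in this report come from another annotation. By that annotation the printed CHAC1, ASNS, IARS and SLC3A2 stretches lie within the gene, and the AARS stretch crosses its edge. Of the members that changed with Dox in the mutant lines, described next, 2 of the 5 lower ones with a window held the letters (ATF3 and SLC3A2) and neither of the 2 higher ones did. Among the 31 other tested members with a window, 8 (25.8%) held them.

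The first question was what induced EHMT1 does to these genes across the stable lines. Over the 4 lines, Dox lowered 5 of the 46 members tested and raised 2, in edgeR's quasi-likelihood test at an adjusted p under 0.05 over all 14105 genes. The 5 were ATF3, DDIT3, NUPR1, DDIT4 and SLC3A2, and the 2 were SLC38A2 and PSAT1. Of all genes tested, 1.47% were lower and 0.553% higher. Over the 3 mutant lines alone, 6 members fell, the same 5 and ATF4, and the same 2 were higher, against 2.26% and 1.12% of all genes. The median log2 change of the 46 members was 0.03 both over the 4 lines and over the mutants, beside 0.00 for all genes, so the members did not move as one block. The largest change was that of SLC38A2, and no tested member was 1.5-fold lower in any line. In RNA from a whole culture, fewer cells with a transcript and less of it per cell cannot be told apart. Without the K450R line, or without K451R, SLC38A2 and ATF3 alone passed over the 4 lines, and without K450RK451R the calls of DDIT3, DDIT4 and SLC3A2 were lost.

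**Figure D1:**
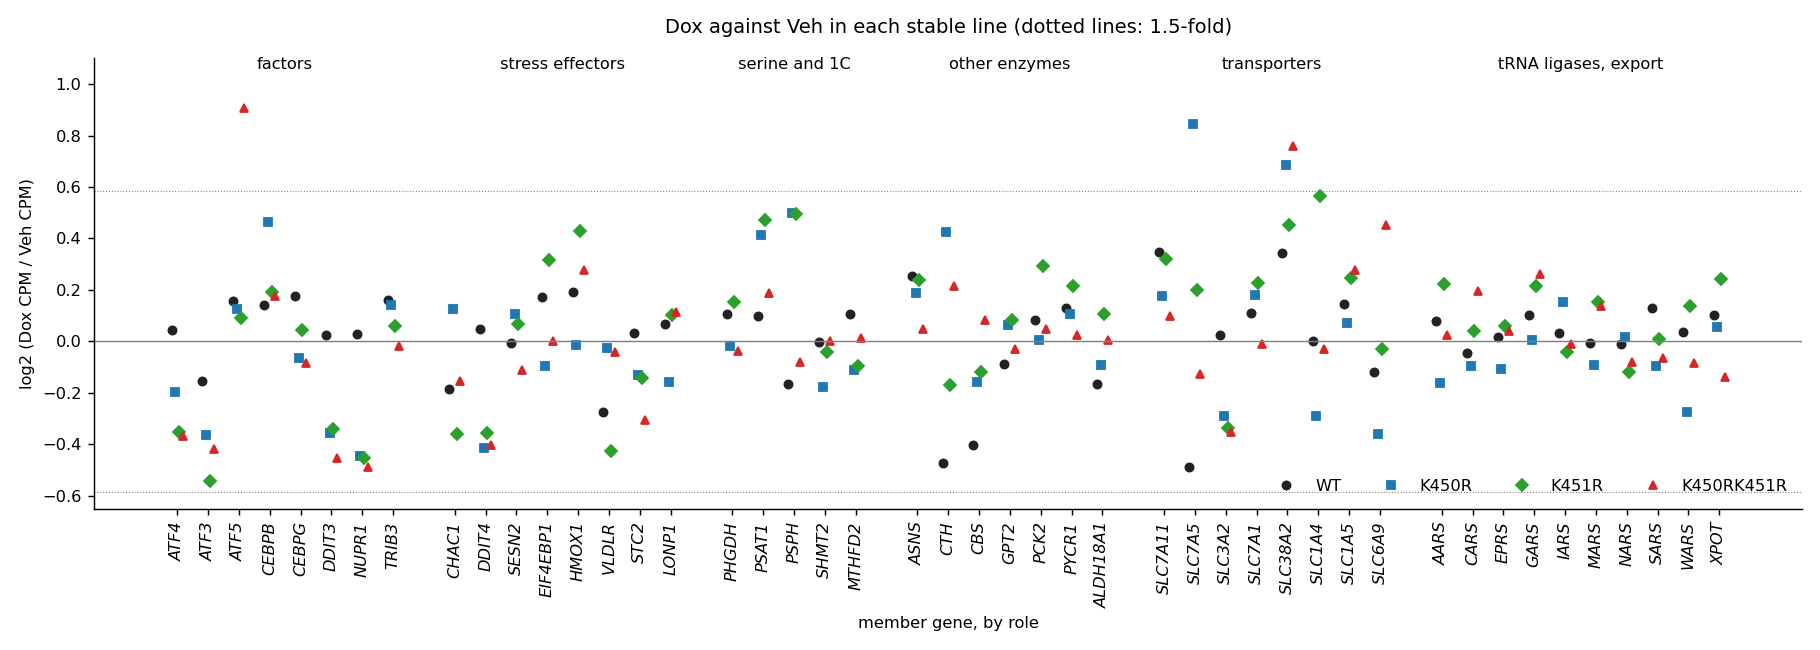
Log2 ratio of Dox to Veh CPM (y axis) for each of the 46 tested members (x axis, by role) in the WT, K450R, K451R and K450RK451R lines, 1 point per line, with dotted lines at 1.5-fold. ATF4, DDIT3, NUPR1, DDIT4 and SLC3A2 lie below 0 in the 3 mutant lines and slightly above 0 in WT, and SLC38A2 lies above 0 in all 4.

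Among the transcription factors and cofactors, 4 of 8 were lower over the mutant lines and none was higher. ATF4 (chr22:39915700-39918688), the factor itself, was at 537 CPM in WT Veh and 554 in WT Dox. It went from 547 to 477 CPM in K450R, from 516 to 404 in K451R and from 500.0 to 387 in K450RK451R. The mutant lines were thus lower with Dox in 3 of 3, and WT was not, its ratio of 1.03 having a 95% counting interval of 0.993 to 1.07. Over the 3 mutants ATF4 fell by 0.31 ± 0.06 (log2, SE; edgeR adjusted p = 0.000700), and over the 4 lines its log2 change of -0.22 did not pass (adjusted p = 0.0646). The tables also list 4 ATF4 pseudogenes that could share reads with it, with a summed mean of 36.0 CPM in the stable lines.

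ATF3 (chr1:212738676-212794119), a stress-induced factor of the same family and an ATF4 target, was lower with Dox in all 4 lines. Its CPM went from 335 to 300.3 in WT, from 252 to 196 in K450R, from 284 to 195 in K451R and from 204 to 153 in K450RK451R. The fall was 0.37 ± 0.06 (log2, SE) over the 4 lines (edgeR adjusted p = 0.000659) and 0.44 ± 0.06 over the mutants (adjusted p = 7.25e-06). Veh levels already differed between lines, and the K450RK451R line without drug was at about the level that K450R and K451R had with it.

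DDIT3 (chr12:57910371-57915520), which encodes CHOP, the factor tied to cell death after unresolved stress, was at 431 and 438 CPM in WT Veh and Dox. In the mutants it went from 369 to 289 CPM in K450R, from 401 to 316 in K451R and from 336 to 245 in K450RK451R. It fell by 0.38 ± 0.06 (log2, SE) over the mutants (edgeR adjusted p = 3.32e-05) and by 0.28 ± 0.06 over the 4 lines (adjusted p = 0.0157). DDIT3 shares 355 exonic bases, 27.2% of its exonic length, with MARS on the opposite strand, and whether strand was used in counting is not given in the sources used here. MARS, itself a member, had Dox to Veh log2 ratios of -0.01 in WT, -0.09 in K450R, 0.15 in K451R and 0.14 in K450RK451R. The part of shared reads in the DDIT3 values was not tested.

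NUPR1 (chr16:28544029-28550329), a small stress-induced chromatin-associated protein, went from 656 to 669 CPM in WT. It went from 521 to 383 CPM in K450R, from 490.2 to 358 in K451R and from 439 to 313 in K450RK451R. All 3 mutants gave nearly the same ratio, 0.735, 0.731 and 0.714, and their Dox values lay below every Veh value. Over the mutants NUPR1 fell by 0.46 ± 0.05 (log2, SE; edgeR adjusted p = 5.98e-07), the largest fall of any member.

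The other 4 factors did not pass. CEBPB, a partner of ATF4 on DNA, was higher with Dox in all 4 lines, most in K450R (13.7 to 18.9 CPM), with a log2 change of 0.24 ± 0.12 (SE) over the 4 lines (edgeR adjusted p = 0.369). ATF5, an ATF4-related factor, was called higher at 1.5-fold in K450RK451R, from 5.98 to 11.2 CPM, a ratio of 1.88 (95% counting interval 1.38 to 2.59), and its other 3 ratios were 1.07 to 1.12. ATF5 shares 19.5% of its exonic bases with NUP62 on the other strand. TRIB3, the pseudokinase that feeds back on ATF4, stayed between 255 and 332 CPM in every condition, with a log2 change of 0.09 ± 0.06 (adjusted p = 0.527). CEBPG lay between 111 and 131 CPM.

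**Figure D2:**
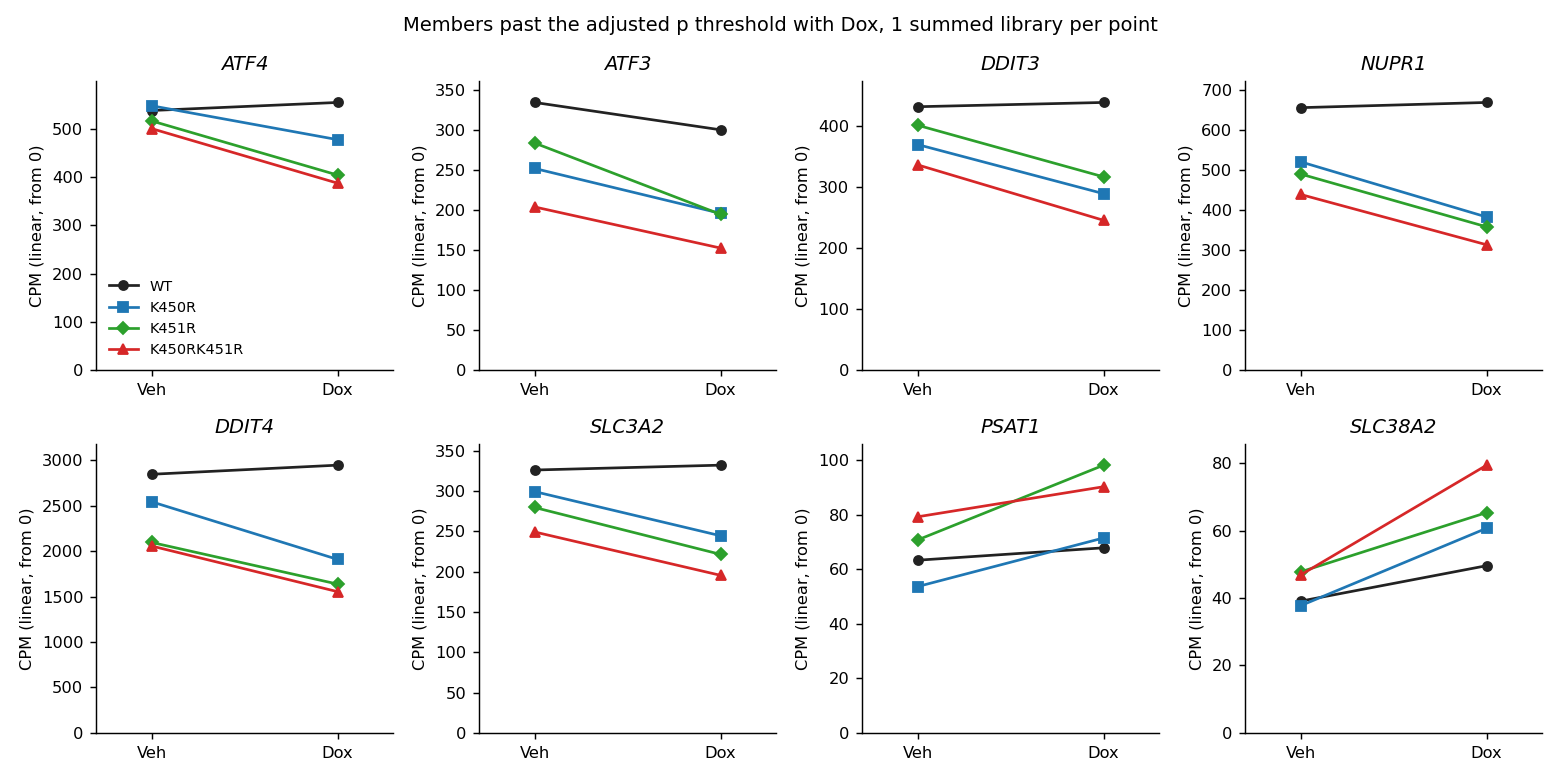
CPM (y axis, linear from 0) in Veh and Dox for the 8 members that passed the adjusted p threshold over the mutant lines; each line joins the 2 conditions of 1 stable line, 1 summed sample per point. For DDIT4, NUPR1, DDIT3, SLC3A2 and ATF4 the WT ratio is 1.02 to 1.04 and the 3 mutant lines fall, and for SLC38A2 all 4 lines rise.

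Of the 8 stress effectors, DDIT4 alone passed the test. DDIT4 (chr10:74033678-74035794), or REDD1, restrains mTORC1 and answers to both ATF4 and HIF-1. It had the highest CPM of the members in the stable lines, at 2847 CPM in WT Veh and 2948 in WT Dox. It went from 2544 to 1910.0 CPM in K450R, from 2097 to 1638 in K451R and from 2058 to 1555 in K450RK451R. The 3 mutant Dox values were the lowest of the 8. It fell by 0.39 ± 0.05 (log2, SE) over the mutants (edgeR adjusted p = 1.01e-06) and by 0.28 ± 0.06 over the 4 lines (adjusted p = 0.0141).

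STC2, a secreted glycoprotein, was 259 and 266 CPM in WT and went from 228 to 208, 242 to 219 and 212 to 171 CPM in the mutants, a log2 change over them of -0.19 ± 0.06 (edgeR adjusted p = 0.0701). It did pass over the mutants with limma-voom (adjusted p = 0.0464) and in edgeR without the K450R line (adjusted p = 0.0262). HMOX1, heme oxygenase, had its highest ratio in K451R, 28.6 to 38.5 CPM, and its log2 change of 0.23 ± 0.09 over the 4 lines did not pass (adjusted p = 0.234). SESN2, an amino acid sensor upstream of mTORC1, was 70.0 to 86.1 CPM in the 8 conditions. CHAC1, which degrades glutathione, was at 9.35 to 16.3 CPM, and its log2 change over the 4 lines was -0.15 ± 0.14 (adjusted p = 0.690). Thus the effectors did not share a direction, with 4 positive and 4 negative changes over the 4 lines.

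The enzymes of serine synthesis and one-carbon metabolism held 1 call among 5 tested. PSAT1 (chr9:80912041-80945009), the aminotransferase of the serine pathway, went from 63.3 to 67.8 CPM in WT, 53.6 to 71.5 in K450R, 70.7 to 98.1 in K451R and 79.2 to 90.2 in K450RK451R. It was higher with Dox in all 4 lines, although in WT the counting interval of the ratio, 0.961 to 1.19, included 1. The rise was 0.29 ± 0.07 (log2, SE) over the 4 lines (edgeR adjusted p = 0.0257) and 0.35 ± 0.08 over the mutants (adjusted p = 0.00536). With DESeq2 PSAT1 passed in neither comparison. Its edgeR call was lost in both without the K451R line, and over the 4 lines also without K450R. Reads shared with its 4 listed pseudogenes, 5.30 CPM in sum, are uncertain.

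The neighbouring steps did not do the same. PHGDH, the first enzyme of the serine pathway, was 259 to 291 CPM in all 8 conditions, and MTHFD2, the mitochondrial folate enzyme, 166 to 226 CPM. PSPH, the phosphatase of the last step, went from 18.5 to 26.1 CPM in K450R and from 23.3 to 32.9 in K451R, but from 24.6 to 22.0 in WT and from 28.0 to 26.5 in K450RK451R. Its log2 change over the mutants was 0.29 ± 0.12 (edgeR adjusted p = 0.221), and it did pass over them without the K450RK451R line. Reads shared with its 1 listed pseudogene, at 8.37 CPM in the stable lines, are uncertain. Of the other 7 amino acid enzymes none passed. ASNS, asparagine synthetase, had the largest change of these, from 105 to 125, 99.4 to 113, 105 to 124 and 120 to 124 CPM in WT, K450R, K451R and K450RK451R, or 0.18 ± 0.06 on the log2 scale (adjusted p = 0.123). ASNS was higher with Dox in 4 of 4 lines, as were PCK2 and PYCR1.

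The transporters gave 1 member in each direction. SLC38A2 (chr12:46751971-46766556), the SNAT2 carrier that imports glutamine and other neutral amino acids, was higher with Dox in every line. Its CPM went from 39.1 to 49.6 in WT, 37.7 to 60.7 in K450R, 47.8 to 65.3 in K451R and 46.9 to 79.4 in K450RK451R. All 4 Dox values lay above all 4 Veh values, and the counting interval of the ratio excluded 1 in each line, WT included (1.11 to 1.45). The rise was 0.56 ± 0.08 (log2, SE) over the 4 lines (edgeR adjusted p = 0.000103) and 0.63 ± 0.09 over the mutants (adjusted p = 9.64e-06).

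SLC3A2 (chr11:62623476-62656352), the CD98 heavy chain that escorts SLC7A5 and SLC7A11 to the membrane, did the opposite. It was 326 and 332 CPM in WT, and went from 299 to 245 in K450R, from 279.7 to 222 in K451R and from 249 to 196 in K450RK451R. It fell by 0.33 ± 0.06 (log2, SE) over the mutants (edgeR adjusted p = 0.000492) and by 0.24 ± 0.06 over the 4 lines (adjusted p = 0.0402). Over the 4 lines this call was lost with DESeq2, with upper-quartile scaling (adjusted p = 0.0598) and without any 1 of the mutant lines. Its partners did not follow it. SLC7A11, the cystine carrier, went from 40.3 to 51.3, 42.5 to 48.1, 43.5 to 54.3 and 51.4 to 55.1 CPM in the same order of lines, with a log2 change of 0.23 ± 0.08 (adjusted p = 0.128). SLC7A5, the leucine carrier, had only 3.33 to 6.43 CPM.

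None of the 10 tRNA ligase and export genes passed in any of the Dox comparisons. Their median log2 change was 0.03 over the 4 lines. GARS, the glycyl-tRNA ligase, changed most, from 182 to 195, 182 to 182, 191 to 222 and 183 to 220 CPM, or 0.15 ± 0.06 on the log2 scale (edgeR adjusted p = 0.216). It did pass over the mutants when the K450R line was left out.

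Counted line by line, with 1.5-fold and at least 100 summed counts as the rule and no test, few members were called. No member was higher or lower in WT, where 1.16% and 2.32% of all genes were. For K450R, SLC38A2 was higher and none was lower, beside 2.47% and 1.7%. In K451R there was none in either direction, beside 2.38% and 2.25%. In K450RK451R SLC38A2 and ATF5 were higher and none was lower, beside 3.93% and 2.29% of all genes.

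The next question was whether the Dox effect differed between the WT line and the mutant lines. With 1 WT line, the EHMT1 allele and the line cannot be told apart. Tested as an interaction, in which the single WT line is assumed to vary like the mutants, 1 member passed. DDIT4 had a Dox effect 0.44 ± 0.10 (log2, SE) higher in WT than in the mutants (edgeR adjusted p = 0.0430), from ratios of 1.04 in WT and 0.751, 0.781 and 0.756 in the mutants. Among all genes 0.135% were higher in WT and 0.00709% lower. Without the K450RK451R line DDIT4 did not pass (adjusted p = 0.0673), at nearly the same size (0.43). NUPR1 missed the threshold with the larger difference of 0.49 ± 0.11 (adjusted p = 0.0518).

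At an unadjusted p under 0.05, 6 members were higher in WT (ATF4, ATF3, DDIT3, NUPR1, DDIT4 and SLC3A2) and 1 lower (CBS), where 3.38% and 3.61% of all genes were. The differences for ATF4 (0.35 ± 0.11), DDIT3 (0.41 ± 0.11) and SLC3A2 (0.35 ± 0.12) therefore stand as values that did not survive correction (edgeR adjusted p = 0.434, 0.238 and 0.467). Without the K450R line ATF4 and DDIT3 passed (adjusted p = 0.0269 and 0.0244), as did NUPR1 (adjusted p = 0.00126), which also passed without K451R, with limma-voom and with no filter on low counts. Of the 46 members, 6 had a ratio under 1 in all 3 mutants and over 1 in WT (13.0%), and none had the reverse. Of 10309 genes with at least 100 summed counts in every line, 8.95% had the first pattern and 8.58% the reverse. Those 6 members were ATF4, DDIT3, NUPR1, DDIT4, STC2 and SLC3A2. For SLC38A2 and PSAT1, whose ratios were over 1 in all lines, the WT effect was smaller by 0.29 ± 0.18 and 0.25 ± 0.16, which did not pass (adjusted p = 0.799 for both).

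**Figure D3:**
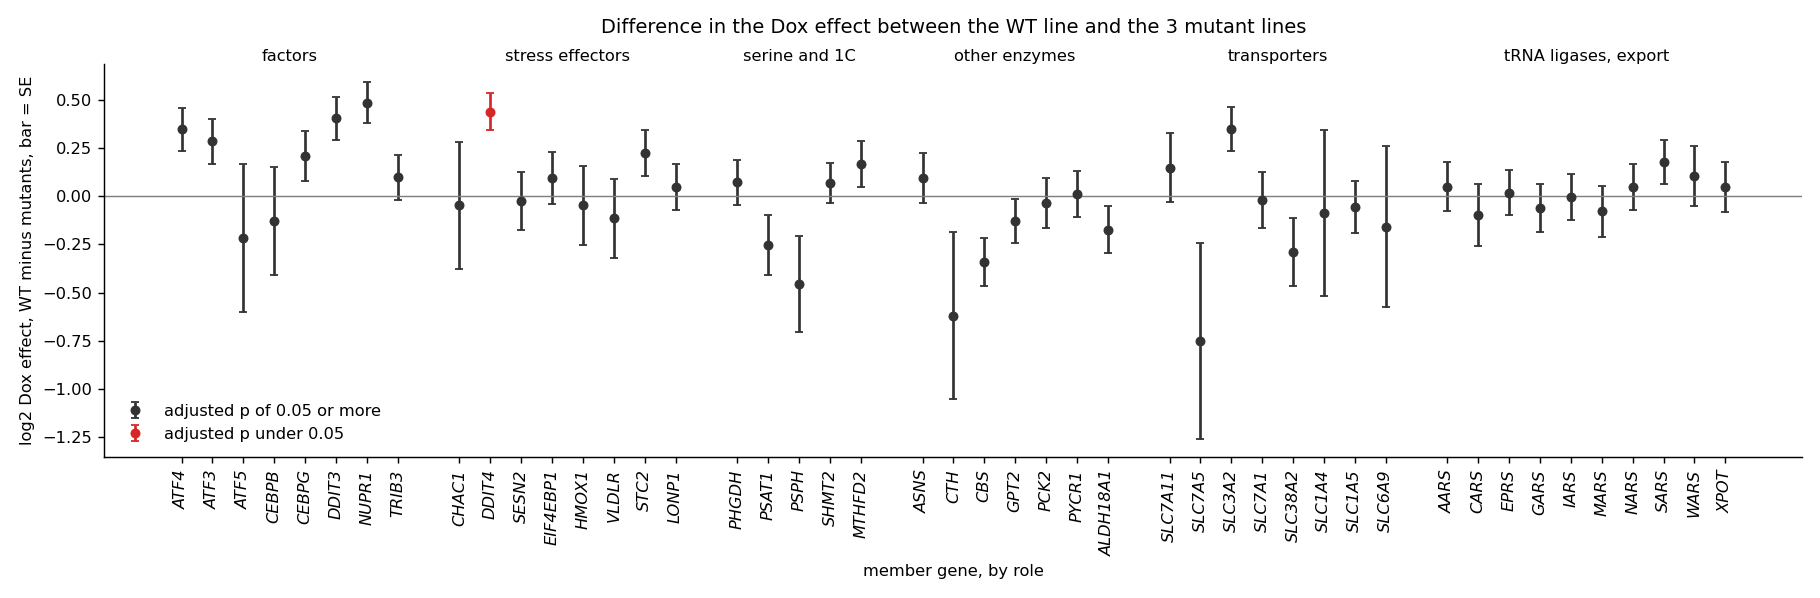
Difference between the log2 Dox effect in the WT line and that in the 3 mutant lines (y axis; point and SE) for each of the 46 tested members (x axis, by role). DDIT4, at 0.44, has an adjusted p under 0.05, and ATF4, DDIT3, NUPR1 and SLC3A2 lie on the same side of 0 at 0.35 to 0.49.

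Other genes around the pathway were counted in the same fits. Over the mutants, 2.26% of all genes were lower and 1.12% higher. Of 16 genes upstream of ATF4 (eIF2 kinases, eIF2 and eIF2B subunits, phosphatase subunits), 1 was lower over the mutants and none was higher. This was PPP1R15A, the stress-induced subunit that removes the phosphate from eIF2, at 66.4 to 61.2 CPM in WT, 60.1 to 28.5 in K450R, 45.2 to 21.7 in K451R and 32.9 to 24.8 in K450RK451R, a fall of 0.85 ± 0.11 (log2, SE; edgeR adjusted p = 3.54e-06). Of 16 tested genes in a list of further ATF4 targets, PPP1R15A, which is in both lists, and SQSTM1 were lower and none higher. The 12 tested targets of the factors ATF6 and XBP1 in the unfolded protein response gave no call in any Dox comparison. Nor did the 11 other cytosolic ligases or the 17 mitochondrial ones, beside at most 2.26% of all genes in either direction.

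Genes of the hypoxia response moved beside these members. Of 11 tested HIF targets, 5 were lower over the mutants and none higher, beside 2.26% and 1.12% of all genes. This list was chosen with earlier results of these data known, so the shares describe it and do not test it. ANKRD37 fell by 0.80 ± 0.07 (log2, SE; edgeR adjusted p = 3.72e-10), SLC2A1, the glucose carrier, by 0.55 ± 0.06 (adjusted p = 1.17e-07) and VEGFA by 0.48 ± 0.05 (adjusted p = 8.37e-08). The summed level of the list was 8058 and 7985 CPM in WT, and went from 8081 to 7171, from 7124 to 5923 and from 7083 to 5730.0 CPM in the mutants. The near-constant WT sum holds changes in both directions. VEGFA went from 1760 to 1456 CPM in WT and NDRG1 from 2732 to 2985. Of 11 HIF targets with at least 100 summed counts in WT, 7 had a ratio under 1 and 4 over 1, beside 5217 and 5619 of 10836 genes. ANKRD37 and SLC2A1 also had a Dox effect higher in WT, by 0.80 and 0.65 (edgeR adjusted p = 0.00171 and 0.00524). The part of this response in the DDIT4 and NUPR1 values was not tested.

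The last question within an experiment was whether lowering endogenous EHMT1 changed the pathway. With siEHMT1, no member passed an adjusted p under 0.05 in either direction, where 0.0551% of the 14532 genes tested were higher and 0.0688% lower. At an unadjusted p under 0.05, 1 member was higher and 6 were lower, beside 4.27% and 4.87% of all genes. DESeq2 and limma-voom also gave no adjusted call, with 4 and 6 members lower and none higher unadjusted. The median log2 change of the members was -0.07 beside 0.00 for all genes, with 34 of 46 below 0, where 7332 of all 14532 genes were.

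ATF4 was 152 and 137 CPM in siNTC and 156 and 156 in siEHMT1, a log2 change of 0.11 ± 0.09 (SE; edgeR adjusted p = 0.759). DDIT3, at 18.7 and 23.9 against 21.2 and 20.2 CPM, and TRIB3, at 75.6 and 78.5 against 78.0 and 69.0 CPM, overlapped between the groups. CEBPB was the 1 member higher without correction, at 12.7 and 11.9 against 14.8 and 16.9 CPM (0.37 ± 0.17, adjusted p = 0.541).

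Among the lower values, XPOT, the exportin for tRNA, had the smallest p. It was 200.3 and 209 CPM in siNTC and 165 and 162 in siEHMT1, and its log2 change was -0.32 ± 0.09 (edgeR adjusted p = 0.212). Reads shared with the 1 listed XPOT pseudogene, at a mean of 18.8 CPM in the siRNA samples, are uncertain. ASNS was 67.0 and 66.0 against 56.1 and 51.3 CPM (-0.31 ± 0.10, adjusted p = 0.314). SLC38A2, which was higher with Dox, was 160.1 and 194 CPM in siNTC and 126 and 154 in siEHMT1 (-0.33 ± 0.11, adjusted p = 0.318), and it passed without siNTC replicate 1 (adjusted p = 0.0380) or without siEHMT1 replicate 2 (adjusted p = 0.0162). DDIT4 was 195 and 208 against 180.1 and 170 CPM (-0.20 ± 0.09, adjusted p = 0.496), with the same sign as in the mutant lines with Dox. HMOX1 had the largest change among the effectors, -0.35 ± 0.17 (adjusted p = 0.555), and SLC7A5 the largest of any member, -0.46 ± 0.30 (adjusted p = 0.668), at 3.55 to 6.13 CPM.

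**Figure D4:**
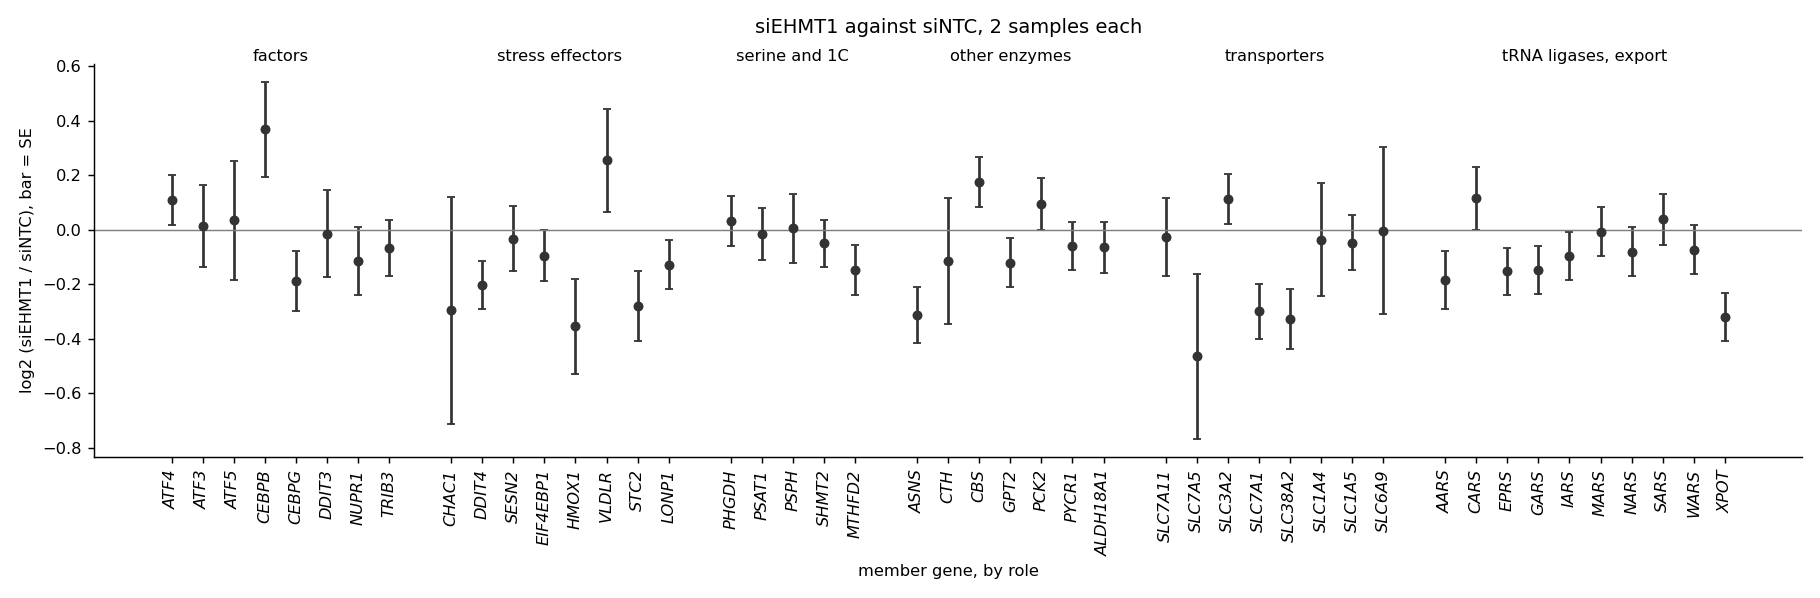
Log2 change of siEHMT1 against siNTC (y axis; point and SE, 2 samples each) for the 46 tested members (x axis, by role). Values lie between -0.46 for SLC7A5 and 0.37 for CEBPB, and none passed the adjusted p threshold.

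The control levels of several factors and effectors differed more between the experiments than with Dox or siEHMT1. The tables were scaled separately, so these values stand side by side without a test. The siNTC cells had received siRNA and the Veh lines had been transduced and selected, which cannot be told apart from the experiment. DDIT3 was 336 to 431 CPM in the 4 Veh samples and 18.7 and 23.9 CPM in siNTC, a ratio of means of 18.0. DDIT4 (ratio 11.8), ATF3 (11.5) and NUPR1 (9.32) were likewise higher in the stable lines, and ATF4 mRNA was 3.64 times as high. In all, the 4 Veh samples lay above all 4 siRNA samples for 28 of 46 members and below for 9. Of all 14897 genes with a mean over 1 CPM in Veh or siNTC, 25.1% were above and 34.9% below in the same way.

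By role, all 8 stress effectors and 6 of 8 factors were above, with median ratios of 2.62 and 3.66, beside 0.924 for all genes. Of the serine and one-carbon enzymes 3 were above and 2 below, of the other amino acid enzymes 3 and 1, of the transporters 4 and 1, and of the ligase and export genes 4 and 4. SLC38A2 went the other way, at 37.7 to 47.8 CPM in Veh against 160.1 and 194 in siNTC, and PSAT1 and PSPH were also lower in the stable lines. The 11 detected HIF targets were all above, with a median ratio of 10.4, and their part in the difference was not tested.

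**Figure D5:**
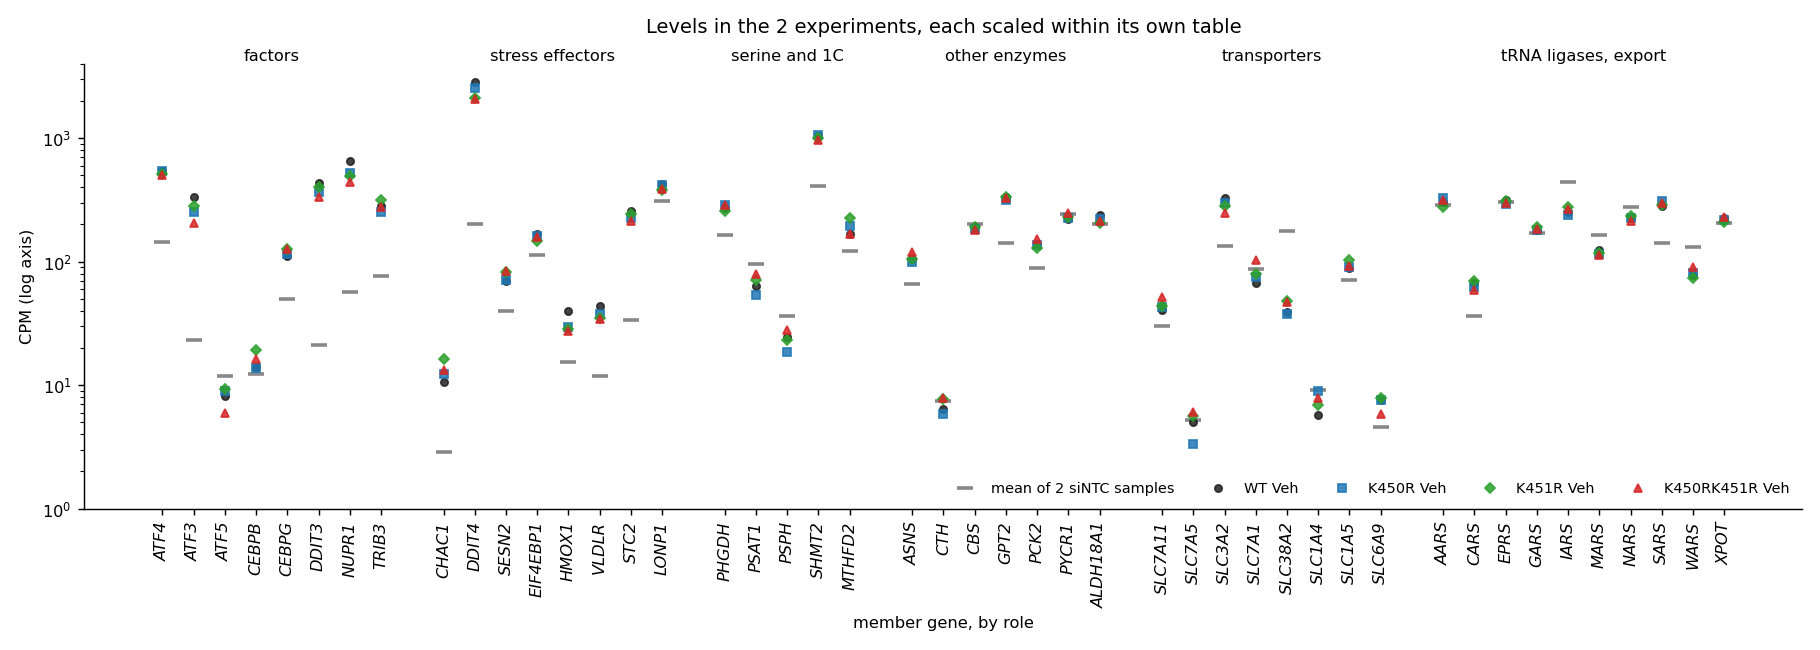
CPM (y axis, log scale) of the 46 tested members (x axis, by role) as the mean of the 2 siNTC samples (grey bars) and in the Veh sample of each of the 4 stable lines (points), each experiment scaled within its own table. DDIT3, DDIT4, ATF3 and NUPR1 stand highest above their siNTC level, and SLC38A2 lies farthest below it.

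Across the 8 stable-line conditions, the genes whose log2 CPM was most like that of ATF4 among 9083 with a mean of at least 10 CPM were CNBP (Pearson r = 0.997), JMJD6 (0.993), KRT18 (0.989), C1orf63 (0.989) and SF3B1 (0.988), none of them a member. These points share lines and libraries, and no p is given. Of the members measured at that level, SLC3A2 (0.944), DDIT4 (0.925), NUPR1 (0.902), ATF3 (0.855) and DDIT3 (0.853) lay nearest, while SLC38A2 (-0.902), PSAT1 (-0.876) and GARS (-0.844) ran opposite. Of 40 members 10 (25%) had r above 0.5 and 12 (30%) below -0.5, where 24.4% and 20.6% of 9082 genes did.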

How the data were processed

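RNA-seq of LNCaP cells and 4 LNCaP-tet-EHMT1 lines was analysed from 2 tables of raw gene counts that the authors deposited. The submitters' processing notes name FastQC 0.11.9, STAR 2.7.2, featureCounts 1.6.4 and hg19/GRCh37. The annotation release and strand setting are not given in the sources used here. Counts were scaled by TMM, filtered by filterByExpr and tested in edgeR 4.0.16 (quasi-likelihood, Benjamini-Hochberg) over all genes. CPM are counts over the TMM-scaled total. The SE of an edgeR change was derived from the test, as the size of the change over the square root of its F statistic. Dox was fitted over the 8 summed conditions with line as a block, and the WT difference as an interaction. Within a line, exact 95% binomial intervals cover counting error only. Nothing says that samples of 1 group were separate cultures, so p-values measure the spread between these samples, moderated with that of all genes. Each gene had 2 or 3 residual degrees of freedom, and edgeR borrowed 16.7 to 30.7 more from the other genes. Members and lists were chosen with earlier results of these data known. Named genes are 16 index genes, the largest change per role and test, and the 5 most like ATF4. PPP1R15A, the HIF targets, ATF5, PSPH's neighbours and other members given values were named after their values were seen. DESeq2 1.42.0, limma 3.58.1 (voom), other scalings and filters, and left-out samples were alternatives. Procedures were tested on simulated data.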

Additional observations from a re-analysis of the deposited data

Results flagged for a closer look

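Among the 4 lines, 1 line stood apart in the Dox to Veh log2 ratio of 4 named genes. WT stood above the 3 mutants for DDIT4, at 0.050, for SLC3A2, at 0.0264, and for NUPR1, at 0.0283. K450R stood above the other 3 lines for CEBPB, at 0.46. The measure was the gap to the nearest line as a share of the range, and 24 genes were examined. Chance alone flags about 1 in 20 groups of values that were not selected. Some of the 24 genes, NUPR1 among them, were picked for large changes in these same values, so that rate does not apply to them. The genes also share the same samples and are not separate draws.

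The Dox effect on DDIT4 differed between the WT line and the mutants by 0.44 on the log2 scale in the interaction test given in the report. That call was lost without the K450RK451R line (edgeR adjusted p = 0.0673), and WT is 1 line.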

How the results depend on the processing

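Counts below are of members at an adjusted p under 0.05 unless said otherwise. For siEHMT1 the count was 0 in both directions with each other tool, scaling and filter, and ranged from 0 to 1 lower and 0 to 0 higher when each sample was left out, SLC38A2 being lower without siNTC replicate 1 or siEHMT1 replicate 2. The replicate numbers did not pair the siRNA samples (Pearson correlation of deviations -0.01), and with the replicate number as a block the count stayed 0 higher and 0 lower. Over the 4 lines, DESeq2 gave 1 higher and 3 lower, losing NUPR1, PSAT1 and SLC3A2, and upper-quartile scaling gave 4 lower, losing SLC3A2. Leaving out each line gave 1 to 2 higher and 1 to 6 lower: SLC38A2 and ATF3 alone remained without K450R or without K451R, and DDIT3, DDIT4 and SLC3A2 were lost without K450RK451R. A fit with the 16 columns as samples and a replicate block treats columns that agree within counting noise as replicates, so its extra calls lack independent samples. It gave 10 higher and 8 lower over the 4 lines, 11 and 7 over the mutants, and 7 and 1 for WT against mutants. Over the mutants, DESeq2 gave 1 higher, losing PSAT1, and leaving out each line gave 1 to 4 higher and 6 to 7 lower. The calls added were GARS, SLC1A5 and STC2 without K450R and PSPH without K450RK451R. For WT against mutants, limma-voom and no filter gave 2 higher, adding NUPR1, and leaving out each mutant line gave 0 to 4 higher, with 0 lower; the 4, without K450R, were DDIT4, ATF4, DDIT3 and NUPR1. Within a line, the 2-fold rule left 0 higher in K450R and 0 in K450RK451R, no count minimum gave 2 in K450R, and total-count scaling gave 3 in K451R. ATF4, not called over the 4 lines, passed there with limma-voom, with no filter and without WT. None of the members' fitted log2 changes given in the report changed sign under the alternatives run. The cause of these shifts was not tested. The smallest change called over the 4 lines was -0.24 on the log2 scale (SLC3A2).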
